A study of Mus musculus with 16 samples.

Results

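The early response of macrophages to tumor medium, with ruxolitinib present on both sides, was compared in 5 of the 16 RNA-seq samples of the series. They were chosen by their labels: 2 samples of CM + Rux 2 h (numbers 2 and 3) and 3 samples of DMEM + Rux (labelled No_CM_Rux, numbers 1 to 3). All were bone marrow-derived macrophages (BMDMs) of WT Balb/c mice aged 8 weeks. CM is medium conditioned by 4T1 cells, a mouse mammary tumor line, and DMEM is plain culture medium. Ruxolitinib (Rux) blocks JAK1 and JAK2, kinases bound to cytokine receptors. The methods give 0.5 µM of it for BMDMs in CM, added while the cells were serum starved before the CM, and give neither a dose nor a time for DMEM + Rux. The 3 samples of CM + Rux 4 h were used where the label times are compared. The methods describe a treatment of 4 h in triplicate, so the 2 h is used here as the label gives it. The labels do not tie samples to separate animals or cultures, so p-values rest on a spread between samples that may be technical. This spread was estimated from all 16 samples in 6 groups. CM came from 1 tumor line grown in another medium, so tumor factors, medium and time in CM cannot be told apart. STAT phosphorylation was not measured in these samples.

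Macrophages sense cytokines, growth factors and damage signals through several kinase cascades. The IKK kinases release NF-κB, which switches on cytokine and chemokine genes together with its own inhibitors. MAP kinases drive immediate-early genes such as those of the FOS, EGR and NR4A families, and receptor-bound JAK kinases phosphorylate STAT factors, whose targets include the SOCS feedback inhibitors. Induced mRNAs appear in an order, with immediate-early factors and feedback genes ahead of many effector genes.

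The deposited counts summed to 40752686 and 19135435 fragments in the CM + Rux 2 h samples, and to between 18449388 and 39049250 in DMEM + Rux. Levels are given as counts per 1000000 fragments (CPM) of totals scaled by relative log expression, in the order of the sample numbers. They are per fragment and not per length, so they compare samples and not genes. The summed level of 10 macrophage markers was 40800 to 44650 CPM in DMEM + Rux and 52470 to 57980 in CM + Rux 2 h, with Cd14 higher, Mertk lower and the other 8 not called. Of 12 epithelial markers none reached the filter, their sum stayed at or below 0.773 CPM, and Cdh1, Krt5, Krt7 and Krt14 had 0 counts in the 5 samples. B cell markers summed to 88.0 to 140.9 CPM in DMEM + Rux and 55.7 to 71.4 in CM + Rux 2 h (Cd79b and Ighm called lower, which was lost for both without sample 3 of CM + Rux 2 h or sample 2 of DMEM + Rux, at -0.96 and -0.96 for Cd79b and -0.65 and -0.61 for Ighm), and 7 dendritic cell markers to 1.02 to 1.91 and 9.25 to 13.6 (Zbtb46 and Ccr9 higher). Zbtb46 alone, at 0.647, 0.849 and 1.20 CPM and 7.95 and 12.3 CPM, made up most of the rise in the dendritic sum. Each other dendritic marker stayed at or below 0.760 CPM in the 5 samples, and Flt3, Xcr1 and Clec9a were near 0 in both groups. The part of these cell types in the results was not tested, and in bulk RNA fewer cells of a type and less RNA per cell cannot be told apart.

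A large share of the measured transcriptome differed between CM and DMEM in the presence of Rux at the label time of 2 h. Of 12372 genes tested, 2276 rose (18.4%) and 2688 fell (21.7%), 40.1% in all, in CM + Rux 2 h at an adjusted p under 0.05 and a log2 fold change beyond 0.5 (edgeR's quasi-likelihood test with Benjamini-Hochberg adjustment). The changes upwards reached further: 575 genes rose and 241 fell by more than 2 on the log2 scale, and 171 rose and 11 fell by more than 4. Beyond 5 there were 106 genes that rose and 1 that fell. The median log2 fold change was 1.12 among genes that rose and -0.97 among those that fell. The groups did not overlap in 4935 of the 4964 called genes, against 70.8% of all genes tested. Genes that rose held 35.9% to 37.0% of the counts in CM + Rux 2 h and 16.8% to 17.4% in DMEM + Rux, and genes that fell held 4.46% to 4.54% and 10.7% to 11.2%. This shift in composition makes the balance of directions depend on the scaling. On library totals alone 1377 genes rose and 5044 fell, so that 21.4% of called genes were higher in place of 45.9%, and the median over all genes was -0.40 in place of -0.03.

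**Figure D1:**
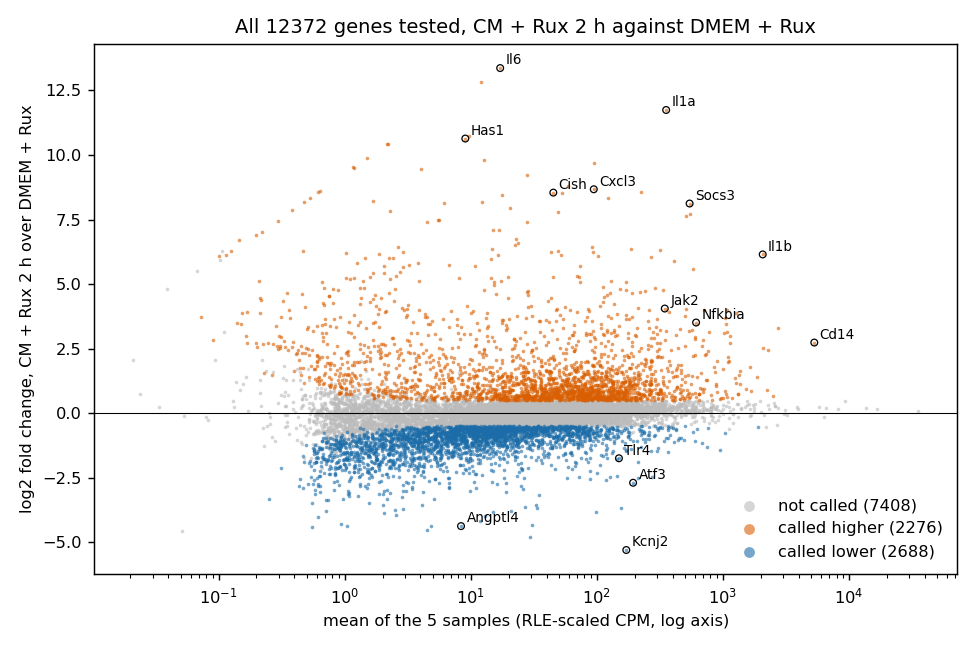
Each point is 1 of the 12372 genes tested, with its mean over the 5 samples (scaled CPM, log axis) across and its log2 fold change in CM + Rux 2 h over DMEM + Rux upwards, coloured by call. The 2276 genes that rose reach beyond 8 on the log2 scale, while only 1 of the 2688 that fell passes -5; the fitted fold change of genes with 0 counts in DMEM + Rux depends on the prior count of the fit.

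The functional gene lists differed widely in how many of their members were called. The highest shares of risen members were in the NF-κB subunits (5 of 5 tested), the NF-κB inhibitors and brakes (15 of 16), the neutrophil-attracting CXC chemokines (5 of 6) and the CC chemokines (9 of 11). Lists of housekeeping functions lay near or below the background, with 3 of 35 lysosome genes and 7 of 34 ribosome biogenesis genes risen against 18.4% of all genes. The share of fallen members was highest in the Toll-like receptor (6 of 19, 31.6%) and cell cycle (11 of 36, 30.6%) lists, against 21.7% of all genes. It lay closer to that background in the NRF2 (7 of 25, 28%) and integrated stress (9 of 35, 25.7%) lists. Members that did not reach the filter are not in these counts.

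**Figure D2:**
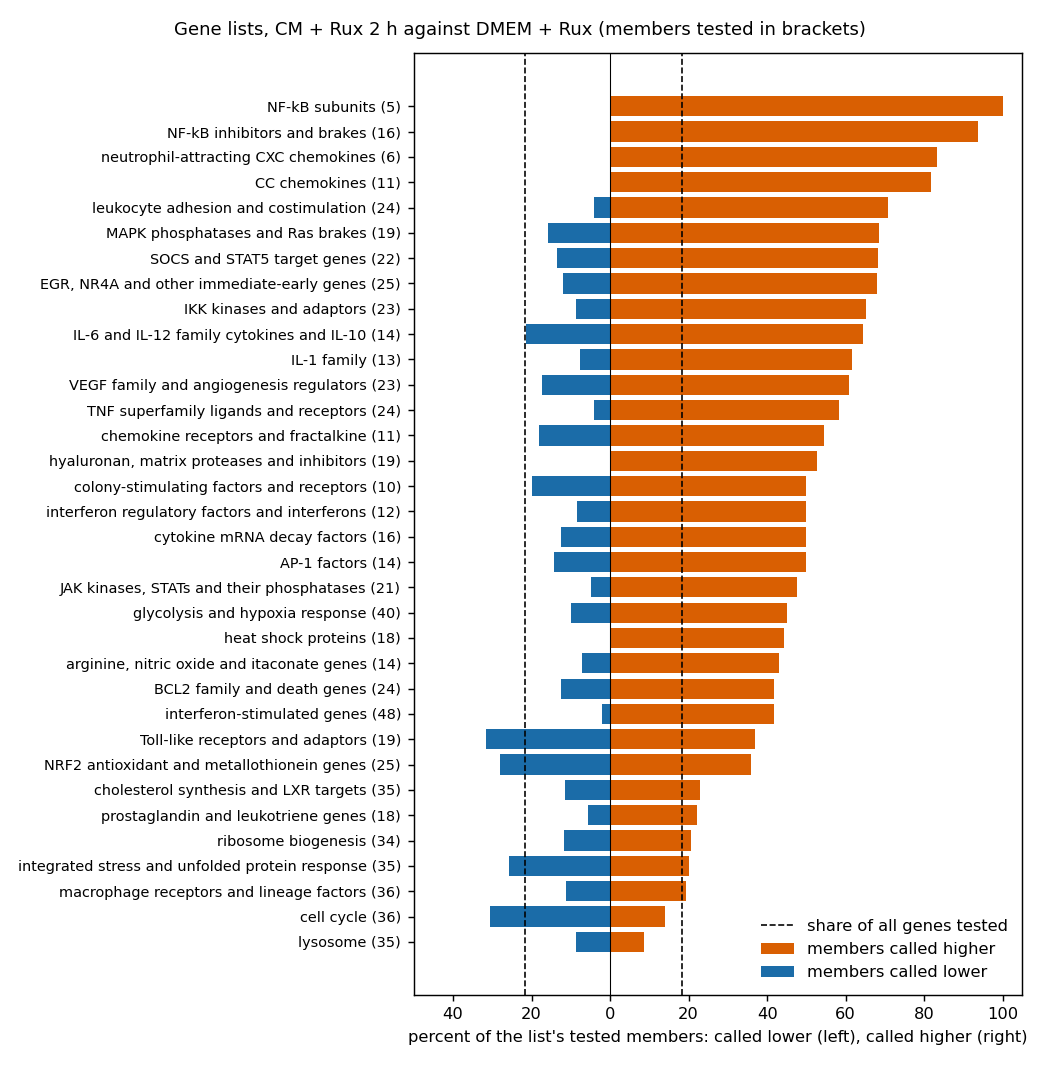
Bars give the percent of each list's tested members that were called higher (right) or lower (left) in CM + Rux 2 h against DMEM + Rux, with the number tested in brackets, and dashed lines mark the shares over all genes tested, 18.4% and 21.7%. All 5 NF-κB subunits and 15 of 16 NF-κB brakes were higher, while 3 of 35 lysosome genes were higher and 3 lower.

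Cytokine and inflammatory enzyme genes made up most of the 15 largest rises, and several were silent in DMEM + Rux. Il6, a cytokine that signals through gp130 and STAT3, had 0 counts in every DMEM + Rux sample and 50.1 and 35.7 CPM in CM + Rux 2 h, at least 309.7-fold higher (adjusted p = 1.06e-05). Nos2, the inducible nitric oxide synthase, likewise went from 0 counts to 12.3 and 47.8 CPM, at least 217-fold higher. The other genes at 0 counts in all 3 DMEM + Rux samples among these 15 were the T cell attractant Ccl17 (at least 39.96-fold), the granulocyte growth factor Csf3 (at least 39.2-fold), the endothelial adhesion gene Sele (at least 27.1-fold), Mab21l3 (at least 21.6-fold) and the EGFR ligand Areg (at least 21.2-fold). In all, 19 genes that rose had 0 counts in DMEM + Rux, and no gene that fell had 0 counts in both CM + Rux 2 h samples. Another 4 of these genes had between 1 and 3 counts over the DMEM + Rux samples. Il23a, a subunit of IL-23, had a ratio of 2336 (95% exact counting interval 419 to 92345), the hyaluronan synthase gene Has1 a ratio of 2371 (425 to 93715), and Il12b, the subunit that IL-12 and IL-23 share, a ratio of 812 (277 to 3940.4). These intervals cover counting error only.

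The alarmin Il1a stood at 0.139, 0.268 and 0.324 CPM in DMEM + Rux and 826 and 953 CPM in CM + Rux 2 h (log2 fold change 11.74 ± 0.70 (SE), adjusted p = 1.11e-08). Olr1, which encodes the scavenger receptor LOX-1, was at 0.0924, 0.223 and 0.518 CPM and 272 and 207 CPM (log2 fold change 9.68 ± 0.33 (SE), adjusted p = 2e-10). Both CM + Rux 2 h samples were far above every DMEM + Rux sample for either gene, but no overlap was a condition of their choice. The value of Olr1 was 10.35 without sample 3 of DMEM + Rux. The cytokines Lif and Il10 reached 76.8 and 63.6 CPM and 157 and 137 CPM from at most 0.185 and 0.421 CPM. Shisa3 was at 8.48 and 11.7 CPM, a ratio of 927 (166 to 36692).

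Immediate-early factors split into members that rose, members that fell and members that were not called. Of 14 AP-1 genes tested 7 rose and 2 fell, with a median log2 fold change of 1.18 beside -0.03 over all genes. Fosb was at 0.185, 0.447 and 0.0971 CPM in DMEM + Rux and 50.1 and 24.4 CPM in CM + Rux 2 h (log2 fold change 7.09 ± 0.55 (SE), adjusted p = 1.4e-07). Fosl2 was at 52.2, 41.4 and 48.9 CPM and 729 and 405 CPM (log2 fold change 3.58 ± 0.26 (SE), adjusted p = 6.24e-08). The groups did not overlap for either, though Fosb stood at 6.48 without sample 2 of CM + Rux 2 h and 8.09 without sample 2 of DMEM + Rux. Maff, Fosl1, Junb, Batf and Jund rose too, by 4.72, 2.92, 2.72, 2.64 and 1.56 on the log2 scale. Jun went the other way, from 93.2, 92.6 and 97.5 CPM to 47.0 and 26.4 CPM (log2 fold change -1.35 ± 0.16 (SE), adjusted p = 9.75e-06), and so did Atf3, a stress-induced repressor, from 279, 282 and 320.5 CPM to 40.4 and 50.8 CPM (log2 fold change -2.69 ± 0.22 (SE), adjusted p = 2.62e-07). Every CM + Rux 2 h sample lay below every DMEM + Rux sample for both. Fos itself did not pass the test: it was at 75.3, 56.6 and 79.2 CPM in DMEM + Rux and at 184 and 57.2 CPM in CM + Rux 2 h, where sample 2 lay above the range of DMEM + Rux and sample 3 within it. The sign of its fold change rested on sample 2, without which it was -0.30. Without sample 3 it was 1.39 and was called (adjusted p = 0.00333), as it was without a filter on low counts (0.80, adjusted p = 0.00643).

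Among 25 other immediate-early genes 17 rose and 3 fell, with a median of 1.05, or 0.68 on library totals. The orphan nuclear receptor gene Nr4a3 was at 0.323, 0.223 and 0.550 CPM and 144 and 121 CPM (log2 fold change 8.54 ± 0.37 (SE), adjusted p = 8.58e-10), and Nr4a1 at 8.04, 3.35 and 14.2 CPM and 146 and 86.5 CPM. Ier3 and Gadd45b, both linked to cell survival under stress, rose by 5.08 and 4.81. The genes that end MAP kinase signals followed: 13 of 19 MAPK phosphatase and Ras brake genes rose and 3 fell, with a median of 1.36. Dusp5 was at 2.31, 2.12 and 4.79 CPM and 292 and 169 CPM (log2 fold change 6.23 ± 0.56 (SE), adjusted p = 5.23e-07), while Dusp2 and Dusp1 rose by 6.12 and 3.78. Dusp14 was detected in 1 DMEM + Rux sample, at 0.112 CPM, and reached 20.4 and 10.4 CPM in CM + Rux 2 h (adjusted p = 3.18e-05). Dusp5 and Dusp2 encode phosphatases of the nucleus that act on ERK.

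The NF-κB genes rose together, subunits and inhibitors alike. Nfkb1, the precursor of the p50 subunit, was at 197, 206 and 199 CPM in DMEM + Rux and 1525 and 1335 CPM in CM + Rux 2 h (log2 fold change 2.83 ± 0.12 (SE), adjusted p = 8.58e-10). Rel was at 81.8, 76.5 and 74.9 CPM and 609.7 and 571 CPM (log2 fold change 2.93 ± 0.13 (SE), adjusted p = 1.04e-09). In both genes every CM + Rux 2 h sample was many times the highest DMEM + Rux sample. Nfkb2, Relb and Rela rose by 2.54, 1.39 and 1.10. Of the inhibitors, Nfkbia, which encodes IκBα and retains NF-κB in the cytoplasm, was at 109, 116 and 132 CPM and 1386 and 1332 CPM (log2 fold change 3.51 ± 0.19 (SE), adjusted p = 4.68e-09). Tnfaip3, which encodes the ubiquitin-editing enzyme A20, was at 44.7, 56.6 and 65.1 CPM and 797 and 902 CPM (log2 fold change 3.94 ± 0.21 (SE), adjusted p = 4.34e-09). Zc3h12a, the RNase Regnase-1, was at 34.9, 35.9 and 40.5 CPM and 615 and 580.1 CPM (log2 fold change 4.01 ± 0.12 (SE), adjusted p = 1.21e-10). For these 3 genes the CM + Rux 2 h samples lay close together and far from DMEM + Rux. The other IκB genes in the list of inhibitors and brakes rose by 3.22 (Nfkbie), 3.05 (Nfkbib), 2.82 (Nfkbiz) and 2.34 (Nfkbid). Bcl3, Tnip1 and Traf1 rose by 3.44, 3.20 and 3.01. Whether the product of each listed gene inhibits NF-κB in these cells was not tested. N4bp1, Tank, Tnip3 and Tnip2 rose by 2.32, 1.25, 1.20 and 0.81, and Cyld by 0.59, a call that was lost without sample 2 of CM + Rux 2 h (0.45). Otulin, a deubiquitinase of linear chains, was the member not called (0.07, adjusted p = 0.659). Of 23 genes for IKK kinases and their adaptors 15 rose and 2 fell, at a median of 0.86, or 0.49 on library totals. Ripk2, the kinase next to NOD receptors, rose by 3.57, and Map3k14 and Birc3 by 1.88 and 1.74, while Tab1 fell by 1.65 on the log2 scale, from 29.0, 33.3 and 30.5 CPM to 9.97 and 9.70 CPM.

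NF-κB and AP-1 bind short motifs that can be read in promoter sequence. The promoters shown are those of 3 CXC chemokine genes and of Tnfaip3, the NF-κB brake gene with the largest fold change among those whose window holds such a motif. The window of Zc3h12a, which had a larger fold change than Tnfaip3, held neither motif and is not shown. The windows come from RefSeq on GRCm38.p6, hold 250 bases before the gene's start and 50 after it, and are written 5′ to 3′ on the gene's strand. Capitals mark matches on either strand to the NF-κB motif (the κB consensus) and to the AP-1 motif TGANTCA, and overlapping matches run together. The windows lie at chr5:90785851-90786150 (Cxcl3, plus strand), chr5:90890995-90891294 (Cxcl1, plus), chr5:90903649-90903948 (Cxcl2, plus) and chr10:19015361-19015660 (Tnfaip3, minus, 1 of 2 windows of this gene).
Cxcl3: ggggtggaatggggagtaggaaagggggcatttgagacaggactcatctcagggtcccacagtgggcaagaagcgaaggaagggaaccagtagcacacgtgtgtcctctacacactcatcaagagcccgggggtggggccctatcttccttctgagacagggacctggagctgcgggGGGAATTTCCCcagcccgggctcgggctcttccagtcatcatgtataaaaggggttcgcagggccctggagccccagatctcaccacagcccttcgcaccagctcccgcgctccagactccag
Cxcl1: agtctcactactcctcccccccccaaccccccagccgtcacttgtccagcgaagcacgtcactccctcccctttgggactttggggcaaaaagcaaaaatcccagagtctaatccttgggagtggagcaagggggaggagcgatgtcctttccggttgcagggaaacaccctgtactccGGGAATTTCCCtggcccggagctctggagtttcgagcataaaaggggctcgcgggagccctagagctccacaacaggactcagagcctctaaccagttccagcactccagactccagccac
Cxcl2: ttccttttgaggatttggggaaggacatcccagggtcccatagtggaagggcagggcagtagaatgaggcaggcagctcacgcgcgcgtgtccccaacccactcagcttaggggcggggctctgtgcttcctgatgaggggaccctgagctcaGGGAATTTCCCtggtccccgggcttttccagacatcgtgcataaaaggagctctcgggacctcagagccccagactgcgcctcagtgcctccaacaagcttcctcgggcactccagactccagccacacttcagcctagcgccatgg
Tnfaip3: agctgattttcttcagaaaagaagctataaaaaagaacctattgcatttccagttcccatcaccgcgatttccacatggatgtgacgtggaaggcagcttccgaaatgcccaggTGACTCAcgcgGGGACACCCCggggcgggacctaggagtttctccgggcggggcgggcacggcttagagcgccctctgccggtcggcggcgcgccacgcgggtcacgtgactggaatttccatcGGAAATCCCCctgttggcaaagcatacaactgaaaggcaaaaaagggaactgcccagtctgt

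The same letters, GGGAATTTCCC, stand in all 3 chemokine windows, where they make 2 overlapping NF-κB matches that begin 73 and 72 bases before the start of Cxcl3, 71 and 70 before Cxcl1 and 97 and 96 before Cxcl2. The Tnfaip3 window holds NF-κB matches that begin 125 and 12 bases before the start and an AP-1 match that begins 136 bases before it. Of all 32851 windows 4.51% held the NF-κB motif and 7.81% the AP-1 motif. The NF-κB motif stood in 7.96% of the windows of genes that rose, 3.71% of those of genes that fell and 5.01% of those of genes not called. For AP-1 the shares were 7.35%, 4.49% and 4.73%. Windows of the NF-κB brakes held the NF-κB motif in 47.6% of 21 windows, and those of the CXC chemokines in 60% of 5. Cxcl5 and Nfkbiz had no window in the table. A match describes letters in the window and not binding in these cells.

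Genes listed as neutrophil-attracting CXC chemokines rose from low levels, in 5 of 6 tested and with a median of 5.67. The 6 genes tested lie within 146579 bases of chromosome 5 (5:90759360-90905938, GRCm38). Cxcl1 was at 4.53, 5.65 and 8.45 CPM in DMEM + Rux and 1311 and 1207 CPM in CM + Rux 2 h (log2 fold change 7.65 ± 0.45 (SE), adjusted p = 1.1e-08). Cxcl2 was at 14.2, 16.2 and 19.0 CPM and 1090.5 and 896 CPM (log2 fold change 5.91 ± 0.37 (SE), adjusted p = 1.98e-08), and Cxcl3 at 0.369, 0.759 and 0.486 CPM and 271 and 202 CPM (log2 fold change 8.67 ± 0.43 (SE), adjusted p = 2.45e-09). Each of these 3 genes was far above its DMEM + Rux samples in both CM + Rux 2 h samples. Cxcl5 reached 4.47 and 3.68 CPM from at most 0.112 CPM (log2 fold change 5.43, adjusted p = 3.69e-05), and Pf4 rose by 1.16, a call that was lost without sample 2 of CM + Rux 2 h (0.91) or sample 1 of DMEM + Rux (0.92). Ppbp stayed near the floor of detection, at 0.185, 0.268 and 0.162 CPM and 0.304 and 0.175 CPM, and was not called (adjusted p = 0.65).

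CC chemokines, which attract monocytes and T cells, rose in 9 of 11 genes tested, with a median of 1.85. Ccl22, a ligand of CCR4 on regulatory T cells, was at 0.416, 0.491 and 0.745 CPM and 105 and 142 CPM (log2 fold change 7.78 ± 0.44 (SE), adjusted p = 7.12e-09). The monocyte attractant Ccl2 was at 0.739, 1.70 and 1.55 CPM and 72.9 and 140.3 CPM (log2 fold change 6.24 ± 0.89 (SE), adjusted p = 4.06e-05), and its neighbour in function Ccl7 rose by 6.60. CM + Rux 2 h sample 3 was above sample 2 for Ccl22, Ccl2 and Ccl7, and both were above DMEM + Rux. Of 11 chemokine receptor and fractalkine genes 6 rose and 2 fell. The decoy-like receptor gene Ccrl2 was at 23.5, 25.9 and 39.3 CPM and 796 and 809 CPM (log2 fold change 4.76 ± 0.26 (SE), adjusted p = 4.41e-09), and Ccr7 and Ccr1 rose by 3.93 and 3.21. Cx3cl1, which encodes fractalkine, was at 1.80, 1.85 and 2.53 CPM and 26.9 and 33.8 CPM (log2 fold change 3.87 ± 0.35 (SE), adjusted p = 5.42e-07). Its receptor gene Cx3cr1 was at 112, 119 and 46.7 CPM and 217 and 119 CPM and did not pass the test (adjusted p = 0.0838). Cxcr4, the receptor of CXCL12, fell from 452, 359 and 426 CPM to 77.5 and 71.8 CPM (log2 fold change -2.46, adjusted p = 5.26e-07).

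**Figure D3:**
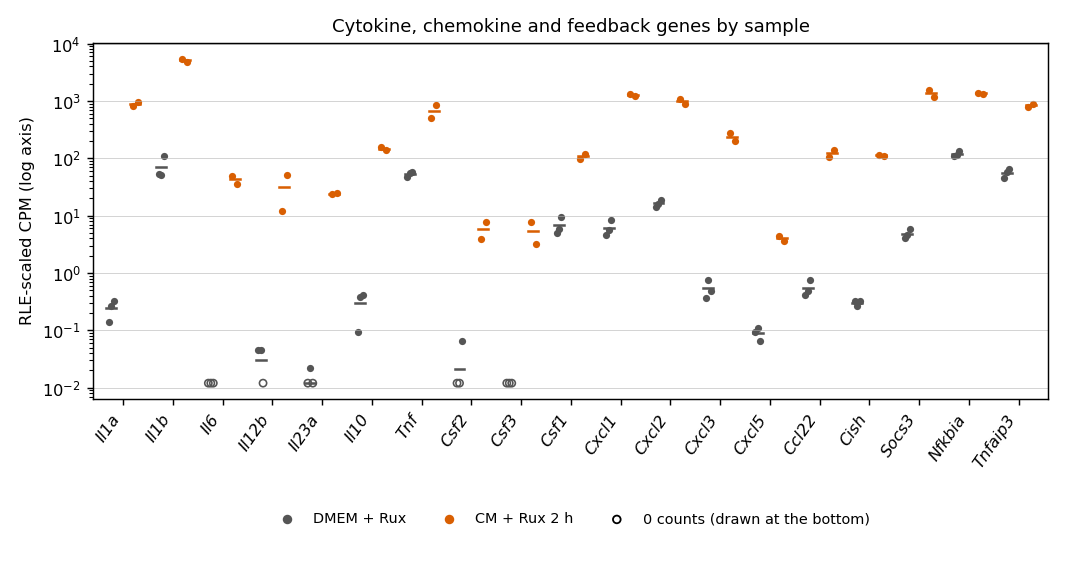
Dots give the scaled CPM (log axis) of 19 cytokine, chemokine and feedback genes in each of the 3 DMEM + Rux and 2 CM + Rux 2 h samples, lines the group means and open circles samples with 0 counts. In every gene shown both CM + Rux 2 h samples lie above all 3 DMEM + Rux samples, from Il6 with 0 counts in DMEM + Rux to Il1b at 4759 and 5411 CPM.

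Il1b, the main secreted IL-1 agonist, was at 53.9, 51.8 and 109 CPM in DMEM + Rux and 5411 and 4759 CPM in CM + Rux 2 h (log2 fold change 6.15 ± 0.43 (SE), adjusted p = 4.7e-08). Il1rn, which encodes the antagonist of the same receptor, was at 59.7, 82.7 and 71.1 CPM and 1333 and 1030.3 CPM (log2 fold change 4.05 ± 0.25 (SE), adjusted p = 1.54e-08). Agonist and antagonist were thus both higher in each CM + Rux 2 h sample. Of 13 IL-1 family genes 8 rose and 1 fell, with a median of 1.598, or 1.296 with genes at 0 counts set at their bound. Il33 had 0 counts in DMEM + Rux and 0.469 and 0.0584 CPM in CM + Rux 2 h, and was not called (adjusted p = 0.0822).

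In the IL-6 and IL-12 families, 9 of 14 genes rose and 3 fell, with a median of 3.44. The 9 that rose all encode cytokine subunits. Beside Il6, Il23a, Il12b, Lif and Il10, they were Clcf1, Il27 and Ebi3 (8.44, 3.09 and 1.54) and Osm, at 4.29, 4.18 and 6.61 CPM and 97.4 and 39.8 CPM. The 3 that fell encode receptor chains, Il6ra (-0.64, not called without sample 3 of CM + Rux 2 h, at -0.55), Lifr (-0.76) and Il6st (-1.06), the last being the shared gp130 chain, at 258, 275 and 258 CPM and 114 and 139.6 CPM. In the TNF superfamily 14 of 24 rose and 1 fell, with a median of 1.26. Tnf was at 47.6, 55.8 and 58.4 CPM and 495 and 847 CPM (log2 fold change 3.64 ± 0.39 (SE), adjusted p = 3.07e-06). Cd40, a costimulatory receptor, was at 2.08, 3.46 and 5.21 CPM and 214 and 284 CPM (log2 fold change 6.09 ± 0.33 (SE), adjusted p = 4.55e-09). Neither gene's groups overlapped. The ligand gene Tnfsf9 rose by 5.07, and its receptor gene Tnfrsf9 was at 0.277, 0.179 and 0.227 CPM and 6.63 and 2.40 CPM, a rise of 4.45 that was 3.44 without sample 2 of CM + Rux 2 h.

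Colony-stimulating factors rose as ligands, with their receptors mixed. Csf2, which encodes GM-CSF, had 2 counts in all over the DMEM + Rux samples and was at 3.89 and 7.60 CPM in CM + Rux 2 h, a ratio of 247 (95% exact counting interval 67.8 to 2052, adjusted p = 8.57e-07). Csf1, which encodes M-CSF, the factor BMDMs are grown in, was at 4.99, 5.76 and 9.62 CPM and 98.4 and 118 CPM (log2 fold change 3.99 ± 0.25 (SE), adjusted p = 1.78e-08). Csf3 was at 7.71 and 3.16 CPM from 0 counts. Csf2rb, which encodes the β chain of the GM-CSF and IL-3 receptors, and its near-copy Csf2rb2 rose by 2.26 and 1.62. The level of Csf1r, the M-CSF receptor gene, was 3136, 3332 and 2779 CPM and 3327 and 2771 CPM, with overlapping groups (adjusted p = 0.911), and Csf2ra and Csf3r were not called either. The growth factor genes Kitl and Flt3l fell by 1.31 and 1.43 on the log2 scale.

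Genes of the JAK-STAT pathway were called with Rux on both sides, among them the SOCS and CIS feedback genes that STATs are known to induce. Cish, a classical STAT5 target, was at 0.323, 0.268 and 0.324 CPM in DMEM + Rux and 115 and 111 CPM in CM + Rux 2 h (log2 fold change 8.54 ± 0.40 (SE), adjusted p = 1.36e-09). Socs3, a feedback inhibitor downstream of STAT3, was at 4.02, 4.60 and 5.96 CPM and 1564 and 1153 CPM (log2 fold change 8.12 ± 0.52 (SE), adjusted p = 2.16e-08). Pim1, a survival kinase gene, was at 54.3, 45.5 and 70.6 CPM and 559.9 and 559 CPM (log2 fold change 3.30 ± 0.23 (SE), adjusted p = 5.34e-08). In all 3 genes both CM + Rux 2 h samples were above every DMEM + Rux sample. For comparison, without a test, the samples in CM without Rux held 122 to 147 CPM of Cish and 1837 to 2598 CPM of Socs3, those in CM + Rux 4 h 49.2 to 88.0 and 1168 to 1949.8 CPM, and those in DMEM without Rux 0.123 to 0.148 and 5.20 to 17.3 CPM. The labels give no time for CM without Rux. Other SOCS and STAT5 target genes lay on either side of it. Il2ra and Socs1 held 9.15 to 12.3 and 17.8 to 18.9 CPM there, against 1.17 to 2.29 and 3.80 to 4.83 in CM + Rux 2 h. Pim1 and Bcl2l1 held less there, 422 to 495 and 148 to 186 CPM, against 559 to 559.9 and 242 to 261.5. Socs1 and Socs2 rose from low levels, to 4.83 and 3.80 CPM and 3.34 and 2.57 CPM (4.02 and 3.54 on the log2 scale), and Socs7 rose by 0.92. Socs4 and Socs5 were not called. Of the 22 genes in the list of SOCS and STAT5 targets 15 rose and 3 fell, with a median of 2.11, or 1.23 with only the groups compared in the fit. Ccnd2, Il4ra and Cebpb rose by 4.13, 3.31 and 3.02, and Bcl2l1 and Pim2 by 1.20 and 0.72, while Id1 had a ratio of 13.99 (5.96 to 40.1). The IL-2 receptor gene Il2ra was at 0.139, 0 and 0.130 CPM and 2.29 and 1.17 CPM, and Gfi1 at 0.0462, 0.0447 and 0.194 CPM and 2.87 and 4.73 CPM. The falls of Socs6 and Ccnd1 (-0.60 and -1.36) were not called without sample 2 of CM + Rux 2 h (-0.71 and -1.62) or without its sample 3 (-0.52 and -1.16), nor was Socs6 without sample 2 or 3 of DMEM + Rux (-0.54 and -0.49). The repressor gene Bcl6 fell by 2.30 on the log2 scale. Bcl6, which STAT5 is known to repress, was at 148, 158 and 133 CPM and 27.7 and 32.0 CPM. Some of these genes, such as Il2ra and Bcl2l1, are known NF-κB targets too.

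The kinase and STAT genes themselves moved unequally. Jak2 was at 51.1, 43.3 and 49.5 CPM in DMEM + Rux and 798 and 794 CPM in CM + Rux 2 h (log2 fold change 4.05 ± 0.13 (SE), adjusted p = 1.24e-10). Jak1 rose by 0.59 (257, 259 and 245 CPM and 367 and 398 CPM), while Jak3 and Tyk2 were not called (0.30 and 0.23). Stat5a was at 34.5, 30.7 and 31.6 CPM and 248 and 306 CPM (log2 fold change 3.10 ± 0.11 (SE), adjusted p = 2.37e-10), Stat5b at 67.2, 60.5 and 66.0 CPM and 98.2 and 98.8 CPM (0.61), and Stat3 at 124, 116 and 112 CPM and 415 and 301 CPM (log2 fold change 1.61 ± 0.19 (SE), adjusted p = 7.96e-06). Stat4 was at 3.14, 2.12 and 2.95 CPM and 21.1 and 10.1 CPM (2.56, or 1.91 without sample 2 of CM + Rux 2 h). Stat2 and Stat6 were not called, with log2 fold changes of 0.30 and 0.44. Among their phosphatases and inhibitors Ptpn1, Ptpn11 and Pias4 rose by 0.77, 0.59 and 0.62, and Ptpn2 by 0.68, a call that was lost without sample 2 of CM + Rux 2 h (0.38). Pias3 fell by 1.02, and Ptpn6, which encodes SHP-1, was at -0.44 and not called. Over the 21 genes 10 rose and 1 fell, with a median of 0.44, or 0.07 on library totals.

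Interferon-stimulated genes rose in part. Of 48 tested 20 rose (18.4% of all genes did) and 1 fell, with a median of 0.74, or 0.75 with the bounds and 0.47 without sample 2 of CM + Rux 2 h. The 4 largest rises included 3 guanylate-binding protein genes, whose products act on intracellular pathogens. Gbp5 was at 0.785, 0.514 and 1.62 CPM and 194 and 422 CPM (log2 fold change 8.34 ± 0.46 (SE), adjusted p = 5.48e-09), Gbp2 at 8.08, 9.85 and 12.0 CPM and 74.1 and 116 CPM (log2 fold change 3.24 ± 0.35 (SE), adjusted p = 3.56e-06), and Gbp3 and Ifi205 rose by 4.13 and 5.81. In Gbp5 and Gbp2 sample 3 of CM + Rux 2 h was above sample 2 and both were above DMEM + Rux, and without sample 3 Gbp5 stood at 7.68. Of 12 interferon regulatory factor and receptor genes 6 rose and 1 fell. Irf1 was at 45.8, 50.2 and 59.0 CPM and 122 and 257 CPM (log2 fold change 1.87 ± 0.24 (SE), adjusted p = 1.57e-05), or 1.24 on the log2 scale without sample 3 of CM + Rux 2 h. Irf4 rose by 2.50, and the receptor genes Ifnar1 and Ifnar2 by 1.65 and 1.06. The interferon genes Ifnb1, Ifna4 and Ifng did not reach the filter.

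Adhesion genes were mostly higher, while genes of Toll-like receptors and their adaptors moved in both directions. Tlr2 was at 216, 294 and 266 CPM and 2158 and 2446 CPM (log2 fold change 3.15 ± 0.19 (SE), adjusted p = 1.11e-08), while Tlr4 was at 228, 224 and 174 CPM and 67.7 and 56.7 CPM (log2 fold change -1.74 ± 0.14 (SE), adjusted p = 2.62e-07). Cd14, a co-receptor of both, was at 1912, 1579.7 and 1407 CPM and 12126 and 9629 CPM (log2 fold change 2.74 ± 0.22 (SE), adjusted p = 1.82e-07). No sample of one group entered the range of the other for these 3 genes. Of 19 genes in this list 7 rose and 6 fell, and the median of 0.30 was -0.07 on library totals. Ticam2, the adaptor that links TLR4 to TRIF, rose by 1.63. Adhesion and costimulation genes rose in 17 of 24 and fell in 1, with a median of 1.72 (1.56 with the bounds). Vcam1 was at 0.277, 0.223 and 0.421 CPM and 32.5 and 51.0 CPM (log2 fold change 7.10 ± 0.51 (SE), adjusted p = 6.83e-08), and Clec4e, which encodes the lectin Mincle, at 199, 187 and 201 CPM and 2847 and 2928 CPM (log2 fold change 3.88 ± 0.26 (SE), adjusted p = 3.13e-08). Icam1 was at 150.0, 181 and 208 CPM and 1916 and 2745 CPM (log2 fold change 3.70, adjusted p = 3.36e-08). Selp, at 0 counts in DMEM + Rux, was at least 1.83-fold higher, and Slamf1 had a ratio of 17.3 (4.18 to 154) and was not called without sample 3 of CM + Rux 2 h (adjusted p = 0.0531).

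Of 36 macrophage receptor and lineage genes 7 rose (19.4%, beside 18.4% of all genes) and 4 fell (11.1%, beside 21.7%). Their median was 0.17 (-0.21 on library totals). Tfec and the scavenger receptor gene Msr1 rose by 2.37 and 1.56. Cytokine mRNA decay factors rose in 8 of 16 and fell in 2. Zfp36, which encodes tristetraprolin and targets cytokine mRNAs for decay, was at 117, 111 and 148 CPM and 719 and 399 CPM (log2 fold change 2.16 ± 0.32 (SE), adjusted p = 6.68e-05), while its paralog Zfp36l1 fell by 1.46 and Zc3h12d by 0.84, the latter not called without sample 2 of CM + Rux 2 h (-0.56).

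A few enzyme genes of lipid mediators, nitric oxide and itaconate rose, while the lipid mediator list as a whole stayed near the background. Ptgs2, the inducible cyclooxygenase, was at 6.51, 6.14 and 6.96 CPM and 1709.8 and 1035 CPM (log2 fold change 7.72 ± 0.38 (SE), adjusted p = 2.23e-09), and Ptges, which makes prostaglandin E2 from its product, at 2.68, 2.48 and 3.34 CPM and 98.5 and 119 CPM (log2 fold change 5.26 ± 0.23 (SE), adjusted p = 9.91e-10). These and the receptor gene Ptger2 (1.80) were among 4 of 18 list members that rose (22.2%, beside 18.4% of all genes), with 1 fallen. The median of the list was 0.09, which was -0.28 on library totals and -0.03 without sample 3 of CM + Rux 2 h. Hpgd, which degrades prostaglandins, was at 37.3, 25.9 and 12.3 CPM and 15.7 and 4.56 CPM and was not called (adjusted p = 0.0703). Acod1, the itaconate-producing enzyme, was at 32.6, 23.3 and 31.7 CPM and 1358 and 1448 CPM (log2 fold change 5.59 ± 0.47 (SE), adjusted p = 2.88e-07), and the arginine transporter gene Slc7a2 at 8.36, 8.04 and 10.6 CPM and 276 and 345 CPM (log2 fold change 5.11 ± 0.13 (SE), adjusted p = 1.36e-11). Arg2 rose by 3.17. Arg1 was near 0 in both groups and was not called. Of the 14 genes of this list 6 rose and 1 fell, with a median of 1.25, or 0.43 with the bounds and 0.32 without sample 2 of CM + Rux 2 h.

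Matrix and vascular genes rose in larger numbers. Of 19 hyaluronan, matrix protease and inhibitor genes 10 rose, with a median of 1.29, or 2.102 without a filter on low counts. Beside Has1, Adamts4 was at 0.0924, 0.0670 and 0.162 CPM and 26.0 and 35.5 CPM (log2 fold change 8.16 ± 0.46 (SE), adjusted p = 7.42e-09), Mmp25 rose by 5.12, and Tnfaip6, whose product binds hyaluronan, had a ratio of 49.3 (8.12 to 2018). Of 23 VEGF and angiogenesis genes 14 rose and 4 fell, with a median of 2.25, or 1.07 with only the groups compared in the fit. Vegfa was at 10.3, 6.43 and 19.7 CPM and 394 and 177 CPM (log2 fold change 4.57 ± 0.46 (SE), adjusted p = 1.67e-06). Serpinb2 and the angiogenesis inhibitor gene Thbs1 rose by 5.48 and 4.72. For Vegfa sample 2 of CM + Rux 2 h was the higher one, and both samples were above DMEM + Rux. Without it the value of Vegfa was 3.87.

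Metabolic and stress lists differed in how far they lay from the shares of all genes at the label time of 2 h (18.4% risen and 21.7% fallen). Of 40 glycolysis and hypoxia genes 18 rose (45%) and 4 fell (10%), with a median of 0.43, or 0.06 on library totals. Ddit4, an inhibitor of mTORC1, was at 1.57, 1.56 and 1.52 CPM and 26.1 and 19.98 CPM (log2 fold change 3.90 ± 0.36 (SE), adjusted p = 7.98e-07), Hilpda rose by 3.29, and Adm was at 0.0462, 0.134 and 0.0648 CPM and 1.19 and 2.63 CPM. Ldha, which encodes a subunit of lactate dehydrogenase, was at 271, 294 and 277 CPM and 456 and 387 CPM (log2 fold change 0.59, adjusted p = 0.000418), and was not called without sample 2 of CM + Rux 2 h (0.46). The gene of the hypoxia factor Hif1a was at 126, 120.5 and 127 CPM and 560.1 and 593 CPM (log2 fold change 2.21, adjusted p = 4.22e-09). In the NRF2 and metallothionein list 9 of 25 rose (36%) and 7 fell (28%). The zinc transporter gene Slc39a14 was at 30.5, 26.5 and 26.3 CPM and 420.4 and 351 CPM (log2 fold change 3.80 ± 0.18 (SE), adjusted p = 1.8e-09), the cystine transporter gene Slc7a11 at 41.2, 22.1 and 30.3 CPM and 248 and 339.8 CPM (log2 fold change 3.24 ± 0.37 (SE), adjusted p = 4.96e-06), and Mt2 rose by 3.14. Osgin1 fell from 23.8, 16.8 and 22.5 CPM to 5.08 and 3.80 CPM (log2 fold change -2.21 ± 0.27 (SE), adjusted p = 9.84e-06), and Hmox1, the heme oxygenase gene, from 395, 397 and 417 CPM to 140.0 and 150.0 CPM (log2 fold change -1.47, adjusted p = 1.56e-07). In the integrated stress list 7 of 35 rose (20%) and 9 fell (25.7%), near the shares of all genes. Chac1, a glutathione-degrading enzyme gene and target of ATF4, was at 1.39, 1.88 and 1.68 CPM and 0.193 and 0.175 CPM (log2 fold change -3.13 ± 1.10 (SE), adjusted p = 0.0259), a call that was lost without sample 2 or 3 of CM + Rux 2 h (-3.22 and -3.08) or sample 2 of DMEM + Rux (-3.02). Of 18 heat shock genes 8 rose (44.4%). They were led by Hspa1b and Hspa1a (2.88 and 2.80), near-identical copies whose shared fragments were not counted, and by Hsf2 and Bag3 (1.66 and 0.86).

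Of 35 cholesterol and LXR target genes 8 rose (22.9%, beside 18.4% of all genes) and 4 fell (11.4%, beside 21.7%). Their median was 0.21, or -0.16 on library totals and -0.10 without sample 2 of CM + Rux 2 h. The cholesterol exporter genes moved apart, with Abca1 at 216, 250.5 and 212 CPM and 711 and 734 CPM (log2 fold change 1.67 ± 0.10 (SE), adjusted p = 1.3e-08) and Abcg1 at 407, 408 and 272 CPM and 133 and 130.1 CPM (log2 fold change -1.46 ± 0.18 (SE), adjusted p = 9.26e-06). Neither exporter's groups overlapped. Mylip, an LXR target, rose by 1.28. In the lysosome list Ctsl and Ctsc rose by 1.41 and 0.89 and Tfeb, the main regulator of lysosome genes, fell by 1.15. In the ribosome biogenesis list Rrs1 and Tsr1 rose by 1.92 and 0.79 and Dkc1 and Wdr12 fell by 0.79 and 0.73. The medians of both lists (0.10 and 0.19) were below 0 on library totals (-0.27 and -0.18).

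Cell cycle genes fell in 11 and rose in 5 of 36 tested, with a median of -0.40, or -0.22 without sample 2 of DMEM + Rux. Ccnb1, the mitotic cyclin B1, was at 4.39, 5.07 and 4.60 CPM and 1.38 and 1.29 CPM (log2 fold change -1.81 ± 0.21 (SE), adjusted p = 6.12e-06). Mki67, the Ki-67 gene, went the other way, from 13.6, 17.8 and 12.8 CPM to 345 and 460.3 CPM (log2 fold change 4.76 ± 0.21 (SE), adjusted p = 8.29e-10), as did E2f8, from 5.03, 5.14 and 3.21 CPM to 21.6 and 41.1 CPM (log2 fold change 2.80 ± 0.28 (SE), adjusted p = 1.56e-06), and the cell cycle inhibitor gene Cdkn1a, from 244, 212 and 257 CPM to 1144 and 1153 CPM (log2 fold change 2.27 ± 0.19 (SE), adjusted p = 2.5e-07). Genes of survival and death showed 10 rises and 3 falls among 24, with a median of 0.34 (-0.03 on library totals). The anti-apoptotic genes Bcl2a1a, Bcl2a1d and Bcl2a1b, near-identical copies among which fragments are hard to assign, rose by 6.15, 4.65 and 3.75. Nlrp3, the inflammasome sensor gene, was at 78.9, 86.4 and 88.5 CPM and 1156 and 1115 CPM (log2 fold change 3.75 ± 0.21 (SE), adjusted p = 5.32e-09). The pro-apoptotic BH3-only genes Bmf and Bbc3 fell by 3.03 and 2.74.

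The 15 largest falls included receptors, a channel and genes of metabolism. Kcnj2, an inward-rectifier potassium channel gene at 11:111066164-111076821 (GRCm38), was at 329, 280.0 and 236 CPM in DMEM + Rux and 6.05 and 8.59 CPM in CM + Rux 2 h (log2 fold change -5.30 ± 0.39 (SE), adjusted p = 8.55e-08). Sesn1, a stress-induced inhibitor of mTORC1, was at 112, 198 and 164 CPM and 10.9 and 11.6 CPM (log2 fold change -3.82 ± 0.28 (SE), adjusted p = 8.52e-08). Cnr2, which encodes the cannabinoid receptor CB2, was at 48.1, 51.2 and 48.6 CPM and 2.82 and 1.93 CPM (log2 fold change -4.32 ± 0.28 (SE), adjusted p = 2.2e-08). Both CM + Rux 2 h samples of these 3 genes were far below every DMEM + Rux sample, but genes with overlapping groups could not enter the 15. Angptl4, an inhibitor of lipoprotein lipase, was at 12.8, 8.71 and 19.1 CPM and 0.690 and 0.584 CPM (log2 fold change -4.37 ± 0.40 (SE), adjusted p = 6.76e-07), and the cytokine gene Il16 at 24.7, 20.9 and 26.8 CPM and 1.49 and 1.99 CPM (log2 fold change -3.83 ± 0.24 (SE), adjusted p = 1.79e-08).

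The lysophosphatidic acid receptor gene Lpar5 and the gene 2010008C14Rik, which lie 964 bases apart on chromosome 6 (6:125067920-125084029, GRCm38), fell by 3.98 and 4.37. On chromosome 11, 9930111J21Rik2 and 9930111J21Rik1 fell by 4.78 and 4.18, and Gm12185 had a ratio of 0.0437 (95% exact counting interval 0.0118 to 0.114). They lie within 146587 bases (11:48904656-49051242), 9930111J21Rik1 lies within the span of Gm12185, and fragments that fit more than 1 of them were left out of the counts, so their single values are uncertain. The gene ENSMUSG00000061654, which has no symbol in the name table, fell by 4.51. Otub2 (a deubiquitinase), Fam13a and Engase (an enzyme that trims free glycans) fell by 3.95, 3.85 and 3.78, and the transcription factor gene Tfap4 went from 3.69, 4.11 and 4.08 CPM to 0.193 and 0.467 CPM.

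**Figure D4:**
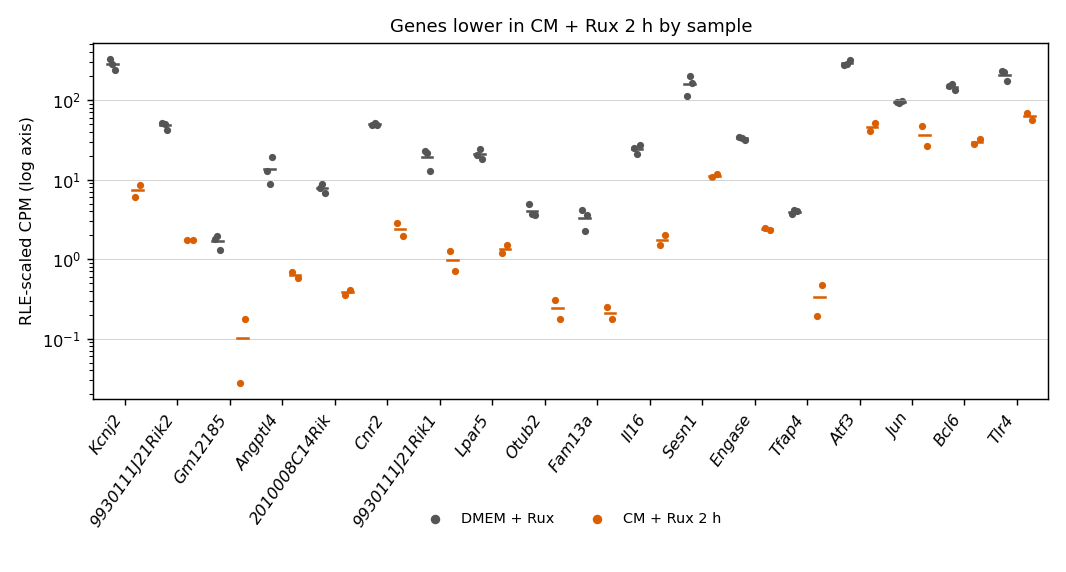
Dots give the scaled CPM (log axis) of 14 of the 15 genes with the largest falls, and of Atf3, Jun, Bcl6 and Tlr4, in each DMEM + Rux and CM + Rux 2 h sample, with lines at the group means. The CM + Rux 2 h samples lie below all DMEM + Rux samples in every gene shown, as for Kcnj2 with 6.05 and 8.59 CPM against 236 to 329. For the 14 genes no overlap was a condition of their choice.

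To place the early response in time, CM + Rux 2 h was compared with CM + Rux 4 h, where 1556 genes were higher at 2 h (12.6% of 12372) and 1327 lower (10.7%), or 1339 and 1704 on library totals alone. Against the same DMEM + Rux samples, 2761 genes rose (22.3%) and 3096 fell (25%) at 4 h, 47.3% in all, or 1699 and 4674 on library totals. Since the comparisons share these samples their values are only set side by side. The methods give only 4 h, so other differences between the groups than time cannot be told apart from it. Immediate-early and MAPK brake genes were higher at 2 h in 10 of 25 and 8 of 19 members and lower in 2 and 2. Of the 14 AP-1 genes 2 were higher at 2 h and 4 lower, among the latter Fos, Atf3 and Jun, which were lower by 1.70, 1.37 and 1.26. Egr3, an early growth response factor, was at 2.17, 1.47 and 3.50 CPM in DMEM + Rux, 10.4 and 12.7 CPM in CM + Rux 2 h and 0.216, 0.606 and 0.305 CPM in CM + Rux 4 h (2 h over 4 h: log2 fold change 4.87 ± 0.40 (SE), adjusted p = 1.23e-06). It was above DMEM + Rux in both samples at 2 h and below it in all 3 at 4 h. Fosb and Nr4a3 were higher at 2 h by 3.85 and 1.73, Dusp14 and Dusp5 by 2.32 and 1.21, and Csf2 and Lif by 2.59 and 1.38. Csf2 was at 0.917, 0.751 and 1.22 CPM at 4 h.

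Other genes stood lower at 4 h than in either other group. The Ras activator gene Rasgrp3 was at 135, 167 and 163, 49.4 and 49.7 and 2.08, 2.49 and 1.83 CPM in the 3 groups, a difference of 4.51 between the times (adjusted p = 4.58e-08). The WNT antagonist gene Dkk2 was higher at 2 h than at 4 h by 4.34 and was at 10.9, 10.5 and 18.4, 4.31 and 7.25 and 0.378, 0.194 and 0.254 CPM. Ifi44l followed the pattern of Egr3, at 4.11, 5.07 and 6.99, 18.3 and 17.7 and 0.836, 1.36 and 1.22 CPM, and 15 of 48 interferon-stimulated genes were higher at 2 h and 2 lower.

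Chemokine, cytokine and metabolic genes were among those lower at 2 h than at 4 h. All 4 CXC and all 4 CC chemokine genes called between the times were lower at 2 h. Cxcl5 was at 4.47 and 3.68 CPM at 2 h and 46.1, 75.3 and 31.2 CPM at 4 h (log2 fold change -3.62 ± 0.44 (SE), adjusted p = 3.61e-05), and Cxcl3 differed by -2.35. Il6 was at 251, 439.5 and 252 CPM at 4 h, and the difference of -2.87 passed the test (adjusted p = 0.00285). Ptges, Thbs1, Vegfa and Il1a were lower at 2 h by 2.57, 2.56, 1.41 and 1.39. In the glycolysis and hypoxia list 27 of 40 genes were lower at 2 h and 3 higher. Egln3, a prolyl hydroxylase that marks HIF for degradation and is itself induced by hypoxia, was at 2.03, 2.21 and 2.01 CPM in DMEM + Rux, 1.55 and 1.58 at 2 h and 17.7, 27.7 and 24.1 at 4 h (log2 fold change -3.89 ± 0.29 (SE), adjusted p = 5.75e-07). Egln3 was not called between 2 h and DMEM + Rux. Ldha was at 958, 1156 and 1032 CPM at 4 h. Tmtc2 and the adhesion gene Pecam1 were lower at 2 h by 4.45 and 3.60. Arg1 had 3 and 0 counts in the CM + Rux 2 h samples and was at 2.24, 15.3 and 4.73 CPM at 4 h (adjusted p = 0.00542, or 0.058 without sample 2 of CM + Rux 2 h). In the cholesterol list 12 of 35 genes were lower at 2 h and 1 higher. The NF-κB subunits differed between the times in 1 of 5 genes (Rel, 0.93), and Nfkb1 and Nfkb2 by 0.02 and 0.03, neither called. Socs3, Jak2 and Cxcl1 were not called between the times either (-0.08, 0.21 and -0.42). Of the 16 NF-κB inhibitors and brakes 7 were higher at 2 h than at 4 h, among them Nfkbib, Tank, Nfkbid and Nfkbia (0.82, 0.76, 0.67 and 0.51).

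**Figure D5:**
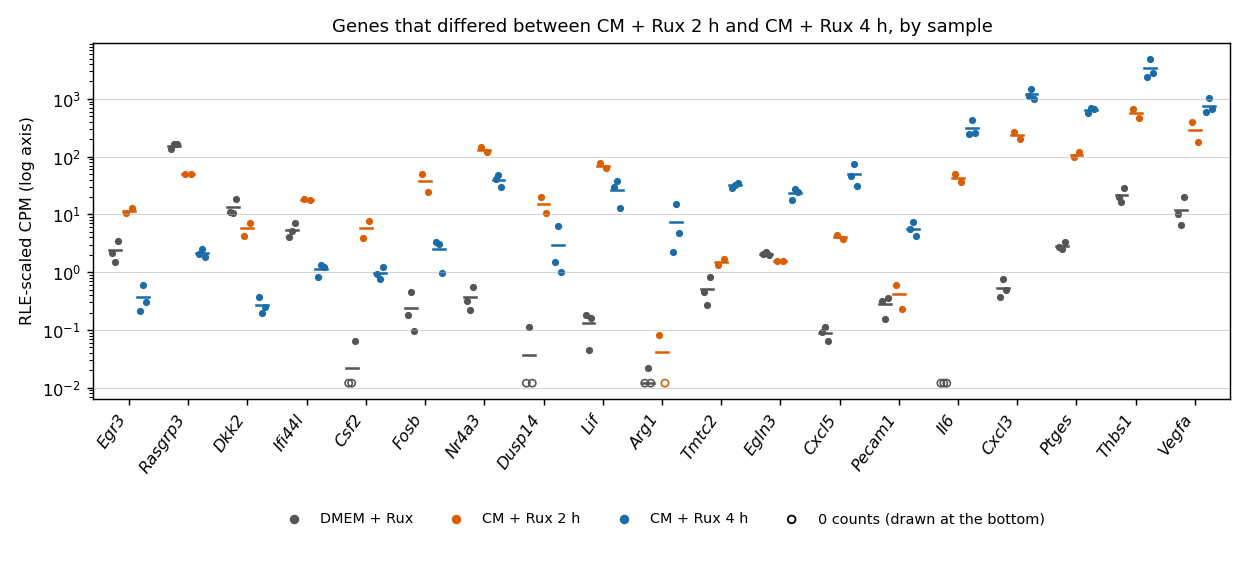
Dots give the scaled CPM (log axis) of 19 genes in the 3 DMEM + Rux, 2 CM + Rux 2 h and 3 CM + Rux 4 h samples, with lines at the group means and open circles for 0 counts. The 9 genes on the left were higher at 2 h than at 4 h and the 10 on the right lower, as for Egr3 at 10.4 and 12.7 CPM against 0.216 to 0.606 and Il6 at 35.7 and 50.1 against 251 to 440.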

How the data were processed

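Per the labels and the study's methods, the authors trimmed stranded paired-end reads with Trimmomatic 0.33, aligned them with HISAT2 2.1.0 to GRCm38 and counted fragments per Ensembl 100 gene with featureCounts 1.6.2 (reverse strand, mapping quality of at least 10, fragments of several sites or genes left out). The deposited values are raw counts per gene for 55487 genes, without filter or scaling. Symbols matched 55141 identifiers, and the 346 others held at most 0.0459% of a sample's counts.

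From these counts, only genes exceeding 1 CPM in 2 samples or more entered the fit, relative log expression (RLE) gave the scaling factors, and all 16 samples in 6 groups were fitted with the quasi-likelihood test of edgeR 4.0.16 in R 4.3.3 (limma 3.58.1 loaded), with adjusted p under 0.05 and log2 fold change beyond 0.5, as in the study's methods, which name edgeR, this scaling and these limits and also a t test. The tests were run without a replicate block. A standard error (SE) is the log2 fold change over the root of the F statistic. Fold changes against groups with 0 counts in every sample are bounds against 3 counts per library, in the shallowest library. DESeq2 1.42.0, other scalings, filters, tests and left-out samples were alternatives. No samples were copies: replicate pairs differed by 15.2 to 58.7 chi-square per degree of freedom. Promoters were read from RefSeq windows (13 of 20 genes of the NF-κB brake and CXC lists there hold a motif) with Python 3.11.15, pandas 2.3.3 and numpy 2.4.6, and figures drawn with matplotlib 3.10.9.

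Genes named were the 15 largest called changes each way with a mean of at least 1 CPM and no overlap, the 5 largest each way between the label times, up to 4 of each list, all members of 7 lists and 7 genes the study names. The comparison, lists and rules were chosen with earlier results of these data known, and Cxcr4, Icam1, Ldha, Hif1a, Hmox1, Bmf, Bbc3, Clcf1, Osm, Il27, Ebi3, Il6ra, Il6st and Lifr were named after their values were seen. A few genes that the rule names are not reported here.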

Additional observations from a re-analysis of the deposited data

Results flagged for a closer look

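The response differed between the label times of CM + Rux. A test of the difference itself found 1556 genes higher and 1327 lower at 2 h than at 4 h of 12372 tested, in 2 against 3 samples. Among the genes with the largest differences towards 2 h were Egr3 (4.87 on the log2 scale), Rasgrp3 (4.51), Dkk2 (4.34) and Ifi44l (3.99), and those towards 4 h Arg1 (-6.98), Tmtc2 (-4.45), Egln3 (-3.89), Cxcl5 (-3.62) and Pecam1 (-3.60). Every 2 h value of these genes lay outside their range at 4 h, but only genes of that kind could be picked, so this adds no evidence. Arg1 had 3 and 0 counts at 2 h, so its value depends on the prior count of the fit. Without sample 2 of CM + Rux 2 h it was not called (adjusted p = 0.058), and the 8 others kept their direction and call under each of 14 alternatives, which were applied to these genes after the data were seen. The groups hold fewer than 4 samples, so no sample was tested for lying apart from its group.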

How the results depend on the processing

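The counts of called genes moved by over 1.5 times in 5 cases. On library totals alone CM + Rux 2 h had 1377 higher and 5044 lower genes against DMEM + Rux, and CM + Rux 4 h 1699 and 4674, because relative log expression raised the fold changes of all genes by 0.37 at 2 h and 0.30 at 4 h at the median; without a fold change threshold 2471 genes were lower at 2 h than at 4 h. Leaving out single samples gave 2083 to 2278 higher and 2259 to 2586 lower genes against DMEM + Rux, 1217 to 1579 and 1029 to 1321 between the times, and 2601 to 2773 and 2947 to 3062 at 4 h against DMEM + Rux. DESeq2 called 2302 higher and 2700 lower, of which 2267 and 2657 were shared with the edgeR calls.

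A replicate block gave 2341 higher and 2832 lower genes over all samples, and 2363 and 2511 with only the groups compared, against 2318 and 2459 without the block. The numbers 2 and 3 are shared without a stated common source, and deviations from the group means correlated at 0.163 and 0.268 for the same number and at -0.268 to 0.145 for others. The deviations of the 2 samples at 2 h mirror each other, so these values are tied in opposite signs and cannot decide on a pairing. With the block over all samples Cx3cr1 (1.06, adjusted p = 5.46e-05), Hpgd (-1.07, adjusted p = 0.000175), Il33 (6.08, adjusted p = 0.00457) and Egln3 (-0.56, adjusted p = 0.0103) were called, the first 2 of them also with only the groups compared and the block, where the median of the SOCS and STAT5 targets was 1.12.

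Of 210 called genes named, 188 kept direction and call under each of up to 14 alternatives and 22 lost the call under at least 1. On library totals alone Bag3, Cyld, Jak1, Ldha, Pias4, Pim2, Ptpn1, Ptpn2, Ptpn11, Stat5b, Tnip2 and Tsr1 fell below the fold change limit with the same direction. Outside the block, Hpgd gained the call under 4 alternatives, Cx3cr1, Fos, Ptpn6 and Il33 under 2, 2, 2 and 3, and Egln3 on library totals. A change of sign was seen in 13 genes that were not called in the main fit, Fos among them. On library totals these were Csf3r (-0.342), Ppbp (-0.0927), Stat2 (-0.0734), Jak3 (-0.0657), Socs4 (-0.267), Tyk2 (-0.137), Otulin (-0.297), Socs5 (-0.0512) and Csf2ra (-0.295). With the block over all samples it was Csf3r (-0.0166), with only the groups compared Csf1r (0.0181), and with those groups and the block Csf3r (-0.0136) and Csf1r (0.0386). Without single samples the values ranged from -0.28 to 0.578 for Ppbp, -1.80 to 3.83 for Arg1, -0.165 to 1.20 for Pecam1, -0.302 to 1.39 for Fos, -0.108 to 0.223 for Otulin and -0.0385 to 0.176 for Csf2ra, each lowest without sample 2 of CM + Rux 2 h, from -0.159 to 0.109 for Csf1r, highest without its sample 3, and from -0.0549 to 0.0905 for Csf3r, lowest without sample 1 of DMEM + Rux. The cause of these changes was not tested. Depth limits genes with few counts in a library.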
